A study of Arabidopsis thaliana with 4 samples.

Results

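FLC, AGL18, SMZ, SNZ, AGL24 and FD are 6 transcription factor genes that set when *Arabidopsis thaliana* changes from making leaves to making flowers. They were read by 6 of the 22810 probe sets in the table, 1 for each gene. AGL18 (locus AT3G57390, probe set 251623_at), AGL24 (AT4G24540, 254130_at), SMZ (AT3G54990, 251811_at), SNZ (AT2G39250, 267010_at) and FD (AT4G35900, 253108_at) were found by their names in the platform annotation. FLC (AT5G10140) was read by a probe set that this annotation does not list. Its assignment to the locus was given when the genes were chosen and was not checked here. Wild-type plants were of the Col accession, and mutant plants carried the ref6-1 allele in the Col background. Both genotypes were whole, untreated seedlings harvested 10 days after germination, raised on MS nutrient plates at 23 °C in days of 16 h light and 8 h dark. Each genotype was measured on 2 Affymetrix ATH1 arrays that the labels call biological replicates, and the number of seedlings behind a sample is not stated in the labels.

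REF6, the gene altered in ref6-1 and also called JMJ12, encodes a Jumonji-domain enzyme. It takes off the silencing methyl groups that the Polycomb complex PRC2 puts on histone H3 at many developmental genes, and from genetic work it is known to hold FLC down. FLC is a MADS-box repressor that binds and silences the floral promoters FT and SOC1 and is itself shut off by prolonged cold and by the autonomous pathway. Col has a nonfunctional allele of the FLC activator FRI and therefore keeps FLC low without cold. AGL18, a second MADS-box repressor, acts redundantly with AGL15, and the AP2-type repressors SMZ and SNZ are targets of the microRNA miR172. AGL24 is a MADS-box promoter of flowering that works with SOC1, and FD is the bZIP factor that joins the mobile FT protein at the shoot apex.

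The question addressed was which of these regulators differ in transcript level between ref6-1 and Col. FLC was about 3 times higher in ref6-1, AGL18 was lower by about 2 times, and SMZ, SNZ, AGL24 and FD had nearly the same mean level in both genotypes. The 6 genes were chosen by name, and with their intensities and fold changes in this same comparison already known, so their differences are given as a description and without a p-value. Values are deposited intensities on a linear scale, and log2 fold changes are differences of log2(intensity + 16), ref6-1 minus Col, so those of dim genes are smaller than the true ones. Errors of log2 fold changes are standard errors from limma, fitted over all 22746 probe sets that are not controls. An intensity depends on the probes as well as on the transcript, so levels were not compared between genes.

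FLC read 89.4 and 85.5 on the Col arrays and 301 and 262 on the ref6-1 arrays. Both ref6-1 arrays lay far above both Col arrays, and the mutant replicates were further apart than the wild-type ones. The Col mean was 87.4 ± 2.78 and the ref6-1 mean 282 ± 27.9 (SD, n = 2 each), a ratio of 3.22. Taken array by array, the ratio of ref6-1 to Col ran from 2.93 to 3.53 over the 4 possible pairs. The log2 fold change was 1.52 (SE 0.107). It was the 2nd highest of the 22746 probe sets tested, below that of AT5G24240 alone. Under the alternative settings that changed the log2 fold changes, FLC ranked between 2nd and 6th. The filters on dim probe sets only removed other probe sets, and without the dimmest 50% it was 1st at the same log2 fold change. The remaining settings left every log2 fold change, and so the rank, as it was.

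AGL18 moved the other way. It read 213 and 208 on the Col arrays and 94.5 and 99.1 on the ref6-1 arrays. The genotypes did not overlap, and the gap between them was many times the distance between replicates of either genotype. The Col mean was 210 ± 3.72 and the ref6-1 mean 96.8 ± 3.21 (SD, n = 2 each), and each Col array was 2.09 to 2.25 times as bright as each ref6-1 array. The log2 fold change was -1.0 (SE 0.0983), the 42nd lowest of all probe sets tested and the 33rd lowest of the 161 called lower. FLC and AGL18, both known as repressors of flowering, thus differed from Col in opposite directions.

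**Figure D1:**
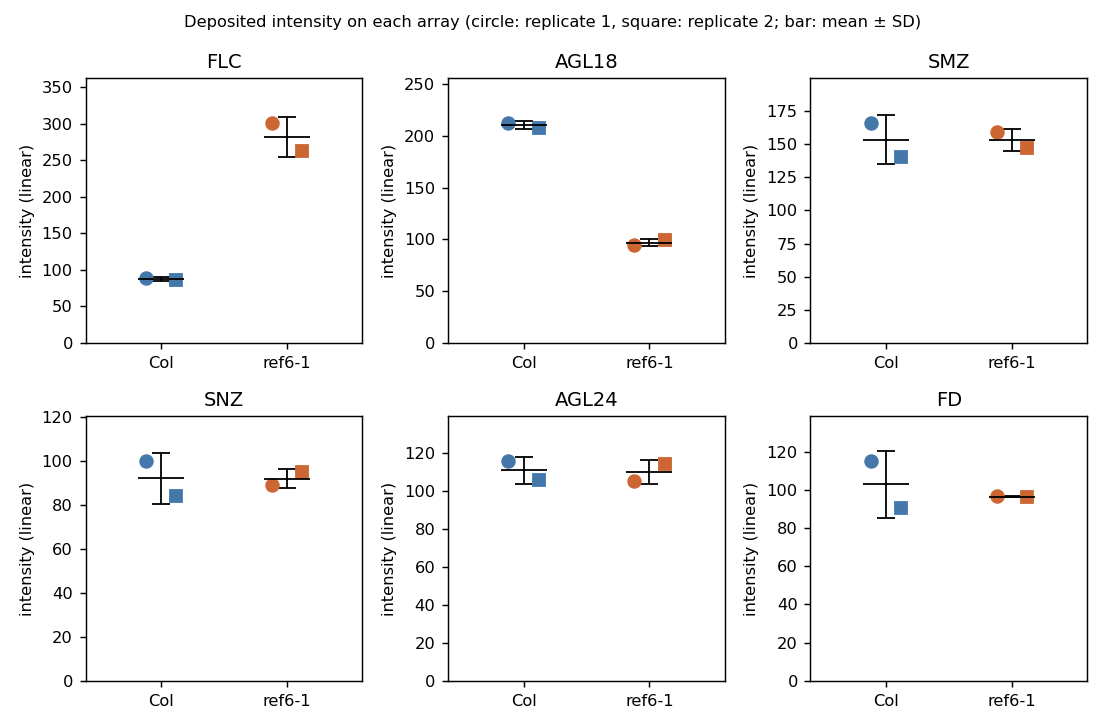
Deposited intensity (linear scale, axes from 0) of each gene on the 2 Col arrays and the 2 ref6-1 arrays. Circles are replicate 1, squares are replicate 2, and horizontal lines with bars are the mean ± SD. FLC rises from 87.4 to 282 and AGL18 goes from 210 down to 96.8 with no overlap, while the genotypes overlap for SMZ, SNZ, AGL24 and FD.

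The paired AP2-type repressors SMZ and SNZ had nearly equal means in both genotypes. SMZ read 166 and 140 in Col and 159 and 147 in ref6-1, so the mutant values lay between the wild-type ones. Its log2 fold change was 0.0016 (SE 0.112), with a 95% interval that runs from a ratio of 0.842 to one of 1.19. SNZ read 100.4 and 84.1 in Col and 89.05 and 95.3 in ref6-1, again inside the span of the Col arrays. Its log2 fold change was 0.0022 (SE 0.112), with an interval from 0.842 to 1.19. With 2 arrays per genotype these values do not show that either repressor is unchanged.

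So did the promoters AGL24 and FD. AGL24 read 116 and 106 in Col and 105 and 114 in ref6-1, and the genotypes overlapped. The log2 fold change of AGL24 was -0.01 (SE 0.104), with an interval from a ratio of 0.844 to one of 1.16. FD read 115 and 90.5 in Col and 96.5 and 96.4 in ref6-1, so the mutant replicates were nearly identical while the Col replicates differed by a ratio of 1.27. Its log2 fold change was -0.07 (SE 0.12), with an interval from 0.79 to 1.14. Both genes are known to act at the shoot apex, a small part of a whole seedling, and in RNA of whole seedlings fewer cells of a type and less RNA per cell cannot be told apart.

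Over the whole table, 337 probe sets (1.48%) passed a limma adjusted p of 0.05, 176 (0.774%) higher and 161 (0.708%) lower in ref6-1. Without Col replicate 2 the count was 533, of which 295 were lower. Of the 6 flowering regulators FLC was among the higher, AGL18 was among the lower and 4 did not pass, a count that the choice of the genes had already set. The arrays of the genotypes did not overlap for 2 of the 6, beside 35.6% of all probe sets. The 2 Col and 2 ref6-1 arrays had median intensities between 142.6 and 146.3. The transcript of REF6 was not analysed here, since no probe set has that name in the annotation used, and the genotype labels were therefore not checked by it.

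**Figure D2:**
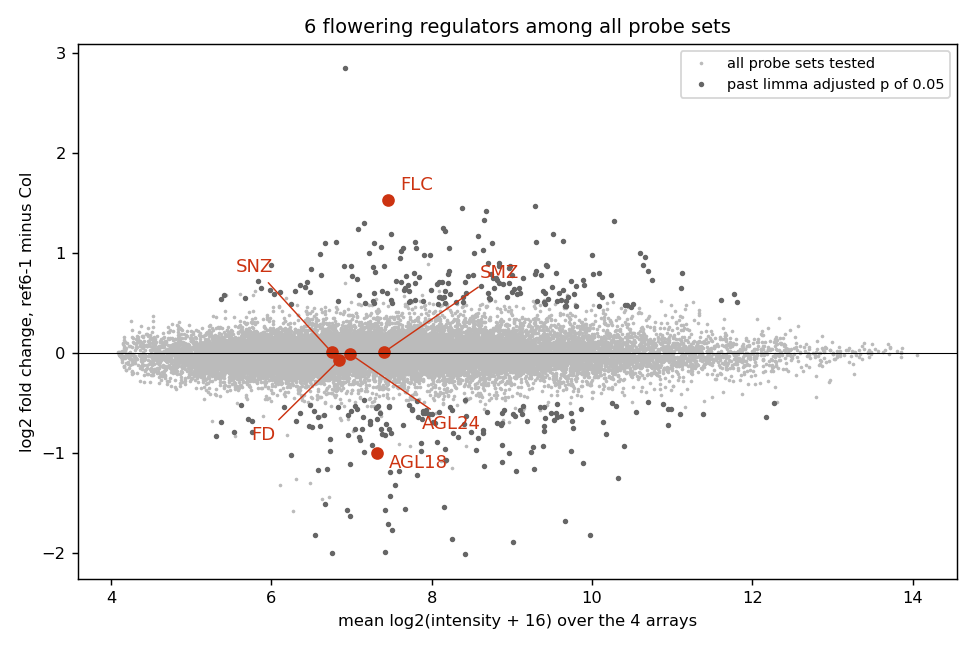
Log2 fold change (ref6-1 minus Col) against mean log2(intensity + 16) over the 4 arrays for the 22746 probe sets tested. Light points are all probe sets, dark points the 337 past a limma adjusted p of 0.05, and the 6 flowering regulators are labelled. FLC lies at 1.52, below only 1 other point, AGL18 at -1.0, and the other 4 lie close to 0 inside the main cloud.

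Among SMZ, SNZ, AGL24 and FD, the brightest of the 4 arrays was Col replicate 1 in each case. Col replicate 1 was also the brightest array for AGL18, where both Col arrays were high, and for 39.5% of all probe sets tested. Its 25th percentile of intensity was 62.8, against 56.9 to 58.1 on the other 3 arrays. These genes were read on the same arrays and are not independent of each other in this respect. Leaving out Col replicate 1 raises the log2 fold change of each of the 4 by construction, and leaving out Col replicate 2 lowers it. FD went from -0.224 without replicate 2 to 0.078 without replicate 1, AGL24 from -0.0703 to 0.0451, SMZ from -0.110 to 0.114 and SNZ from -0.106 to 0.111. FLC was at 1.49 without Col replicate 2 and 1.55 without replicate 1, and AGL18 at -1.02 and -0.99.

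**Figure D3:**
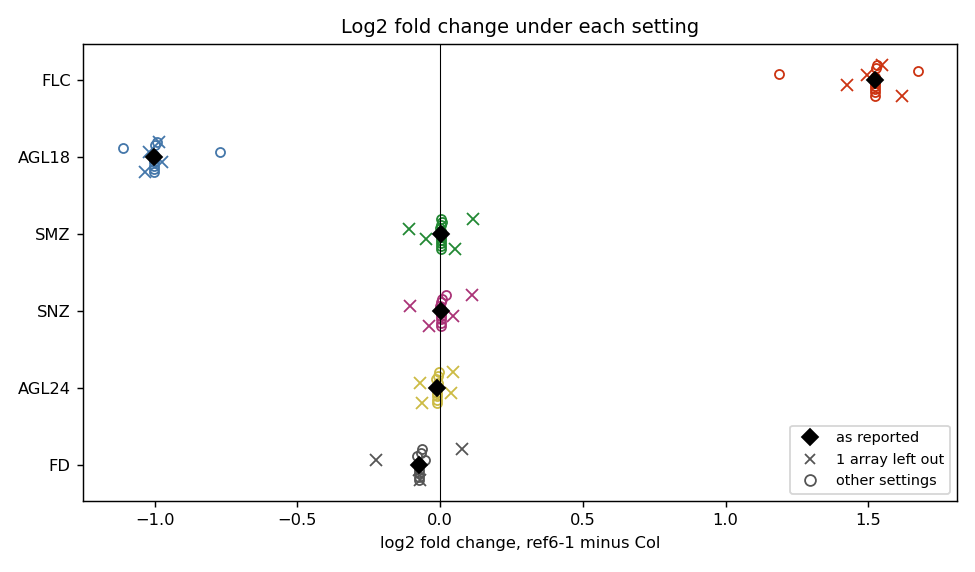
Log2 fold change (ref6-1 minus Col) of the 6 genes as reported (diamonds), with 1 array left out (crosses) and under the other settings tried (open circles). FLC stays between 1.19 and 1.67 and AGL18 between -1.11 and -0.77, with the extremes set by the pseudocount, while SMZ, SNZ, AGL24 and FD fall on both sides of 0.

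The pathway around these genes could be followed only in part. A list of 95 flowering loci was drawn up, of which 15 were measured under a name, 79 had no probe set with a single named gene in the annotation used, and 1 was left out because its locus code and symbol disagreed. FT, SOC1 and AGL15 are among those not analysed here. Of the 9 measured genes besides the 6 described above, 0 rose, 0 fell and 9 did not pass in limma, beside the 1.48% called over all probe sets. No unadjusted limma p among these 9 was under 0.05 (0 of 9). The median log2 fold change of these 9 was -0.0013, beside -0.02 over all probe sets tested, and the genotypes did not overlap for 4 of the 9, near the 35.6% of all probe sets.

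The other measured repressor was ATC, a relative of TFL1, the inhibitor of floral fate at the shoot tip. ATC read 174 and 140 in Col and 180 and 169 in ref6-1, with overlap. Its log2 fold change of 0.15 (SE 0.117) had a limma adjusted p of 0.863. Among the promoters, AGL19, a MADS-box gene held down by PRC2, had the largest upward value of the 9. AGL19 read 34.2 and 28.9 in Col and 48.7 and 32.2 in ref6-1, where replicate 1 alone stood out. The difference was 0.23 in log2 (SE 0.145), at a limma adjusted p of 0.798. AGL42, AGL71 and AGL72 are relatives of SOC1 that promote flowering. AGL42 read 48.4 and 34.1 in Col and 34.7 and 28.9 in ref6-1, again with overlap. The difference was -0.25 in log2 (SE 0.137), at a limma adjusted p of 0.733. AGL71 and AGL72 were dim on every array, between 27.8 and 31.1, and differed by -0.0013 (SE 0.106) and -0.05 (SE 0.103) in log2.

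Of the genes that act above FLC or in the photoperiod pathway only a few were measured: 1 of 17 of the photoperiod and clock class, 2 of 7 of the autonomous pathway, 1 of 4 histone demethylases, and 0 of the FLC activators and of the vernalization and Polycomb genes. None of these 4 genes passed. GI, the clock-controlled activator of the photoperiod pathway, read 377 and 380 in Col and 369 and 367 in ref6-1. These genotypes did not overlap, but GI differed by only -0.04 in log2 (SE 0.0941; adjusted p = 0.971, limma). FY, a 3′ end processing factor of the autonomous pathway that lowers FLC, differed by 0.09 in log2 (SE 0.113; adjusted p = 0.928, limma). LD, a homeodomain protein of the same pathway, differed by 0.05 (SE 0.0986; adjusted p = 0.959, limma). JMJ32, a histone demethylase of the same substrate class as REF6, read 85.6 and 70.8 in Col and 69.1 and 66.5 in ref6-1, with no overlap, differing by -0.16 in log2 (SE 0.113; adjusted p = 0.837, limma; 95% interval -0.42 to 0.09).

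**Figure D4:**
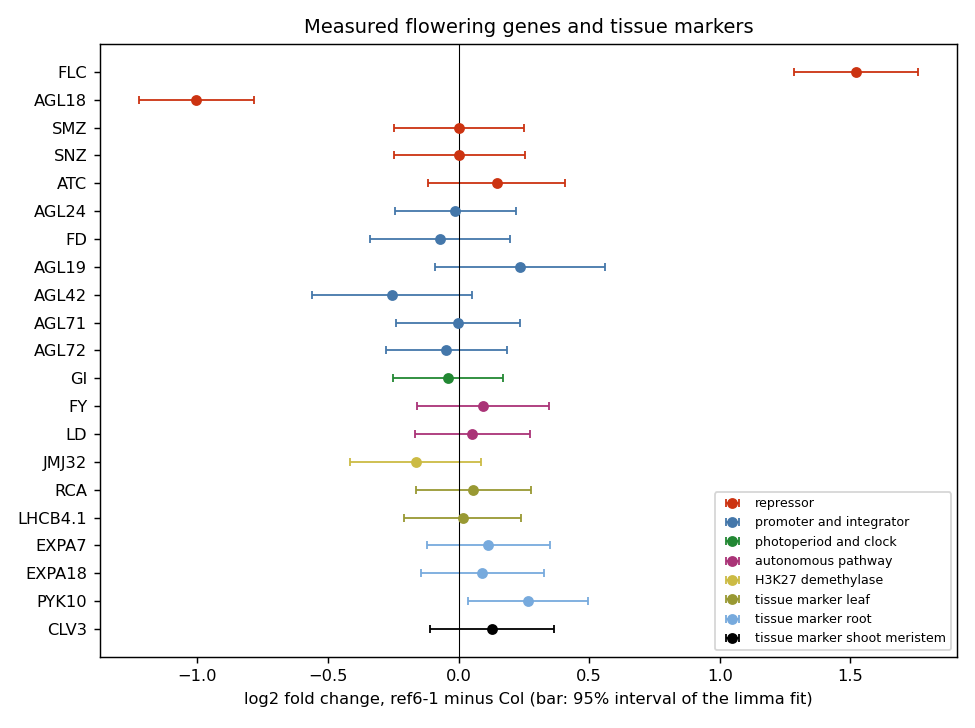
Log2 fold change (ref6-1 minus Col) with its 95% interval from the limma fit for the 15 measured flowering genes and 6 tissue markers, coloured by class. FLC and AGL18 lie away from 0, at 1.52 and -1.0, and the other flowering genes lie between -0.25 and 0.23.

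The whole-seedling label was set against markers of leaf, root and shoot meristem. This could be done only in part. The listed markers RBCS1A (leaf), STM and WUS (shoot meristem), and all those of floral organ and seed, had no probe set with a single named gene. RCA and LHCB4.1, photosynthesis genes of green tissue, were bright on all 4 arrays, at 11560 to 13878. The root hair expansin genes EXPA7 and EXPA18 read 91.2 to 219.8, and PYK10, a beta-glucosidase of roots, read 5200 to 6765. CLV3, a marker of the shoot meristem, was dim, at 33.4 to 40.5. None of these 6 markers passed in limma. PYK10 had the largest difference, with 5548 ± 491 in Col and 6662 ± 146 in ref6-1 (SD, n = 2 each), a log2 fold change of 0.27 (SE 0.103). The limma p of PYK10 was 0.0272 unadjusted and 0.453 adjusted. The genotypes did not overlap for PYK10, EXPA7 and CLV3, as for 35.6% of all probe sets. All 6 markers, those of leaf included, had positive log2 differences, from 0.02 (LHCB4.1) to 0.27 (PYK10). A part of tissue composition in the differences of FLC and AGL18 was not tested.

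Genes next to FLC and AGL18 on the chromosome were examined to see whether the differences extended along it. Within 5 protein-coding genes on each side in the RefSeq order, 4 neighbours of FLC were measured under a name, and 0 of the 4 passed in limma. The gene adjoining FLC on one side, AT5G10130, averaged 70.2 ± 6.04 in Col and 88.1 ± 6.8 in ref6-1 (SD, n = 2 each). The log2 difference of AT5G10130 was 0.27 (SE 0.109), the highest among the 31 neighbours measured around the 6 genes. Its limma p was 0.0312 unadjusted and 0.481 adjusted. The genotypes did not overlap for it, as for 35.6% of all probe sets. The gene on the other side is not named in the annotation used. For AGL18, 7 neighbours were measured and 0 passed, with log2 fold changes from -0.24 to 0.16. On one side of AGL18 the nearest measured neighbour was 3 genes away. The adjoining gene AT3G57380 read 61.05 ± 0.537 in Col and 60.3 ± 4.94 in ref6-1, differing by -0.02 in log2 (SE 0.105; adjusted p = 0.99, limma).

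Around all 6 genes, 31 neighbours were measured, of which 0 rose, 1 fell and 30 did not pass. The one that fell was AT2G39210, which lies 4 genes from SNZ. It went from 275 ± 26.04 in Col to 178 ± 5.1 in ref6-1 (SD, n = 2 each), differing by -0.58 in log2 (SE 0.105; adjusted p = 0.0241, limma). Without Col replicate 2 the log2 fold change of AT2G39210 was -0.49 and it no longer passed. This is 1 call in 31, beside the 1.48% called over all probe sets, and the median of the 31 was -0.03, beside -0.02 over all.

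**Figure D5:**
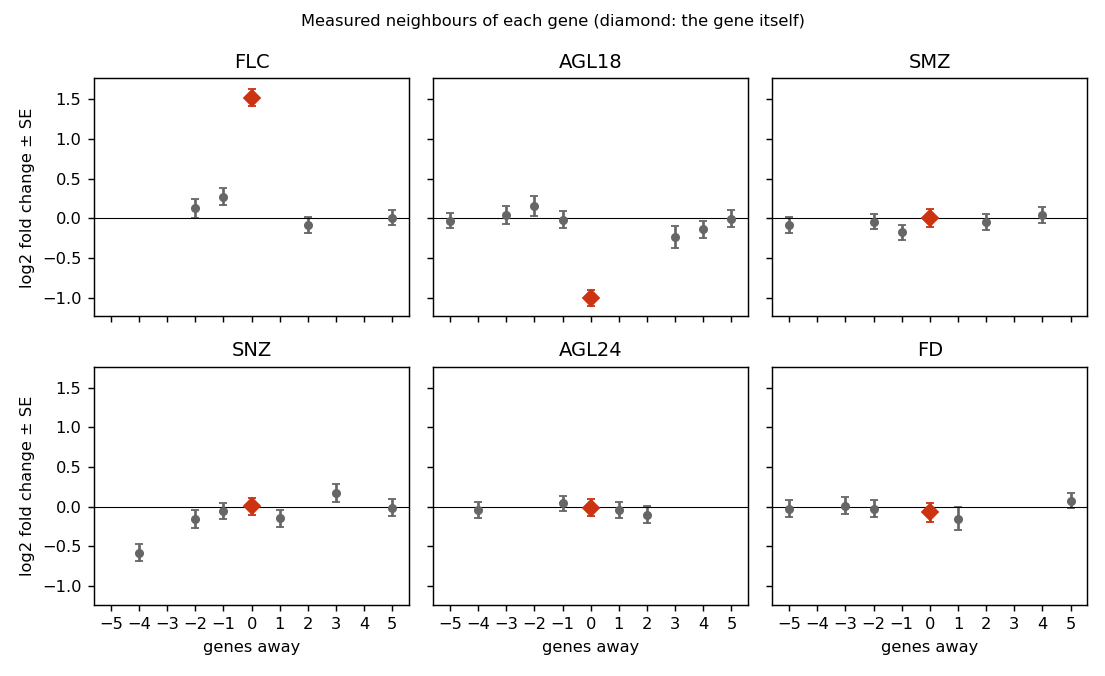
Log2 fold change ± SE (ref6-1 minus Col) of each gene (diamond) and of its measured neighbours (circles) up to 5 protein-coding genes away on either side. FLC at 1.52 and AGL18 at -1.0 stand apart from neighbours that lie between -0.24 and 0.27, and AT2G39210, 4 genes from SNZ, is at -0.58.

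To show which other transcripts had a like course over the 4 arrays, each profile of log2(intensity + 16) was centred on its own mean and set against that of FLC or AGL18. With 4 arrays in 2 genotypes such likeness mostly reflects the same direction and size of difference. Only probe sets with a single named gene were compared, 13513 for FLC and 13512 for AGL18. The 5 closest to FLC were those of AT4G29780, AT2G29500, AT5G48570, AT3G10930 and AT5G65300. Their root-mean-square differences from the FLC profile ran from 0.0695 to 0.174 in log2. AT4G29780 read 186 and 184 in Col and 537 and 523 in ref6-1, higher by 1.44 in log2 (SE 0.0948). The 5 closest to AGL18 were those of AT1G07440, AT3G04000, AT5G23750, AT5G44980 and WNK7, with differences from 0.0493 to 0.109. AT1G07440 read 881 and 790 in Col and 412 and 408 in ref6-1, differing by -1.0 in log2 (SE 0.0995). WNK7, a kinase gene, read 55.4 and 55.2 in Col and 25.6 and 24.4 in ref6-1, and its replicates lay close together in both genotypes.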

How the data were processed

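RNA of whole seedlings was hybridised as biotin-labelled cRNA to Affymetrix ATH1 arrays, per the labels' protocols. The deposited values are linear intensities, 1 per probe set and array. How the authors summarised and scaled these intensities is not stated in the labels, and the table has no detection calls, so it cannot be said which dim probe sets were above background. The number of arrays limits the precision.

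Of 22810 probe sets, 64 controls were left out. For the other 22746, log2(intensity + 16) was compared between 2 ref6-1 and 2 Col arrays with limma 3.58.1 in R 4.3.3 (intensity trend, two-sided, Benjamini-Hochberg over all probe sets tested, threshold 0.05), without further normalization. The fit was run on data simulated from limma's own fitted variances, with noise independent between arrays. Such data check the code and cannot show whether that model holds for these arrays. For a single gene, an exact permutation test of 2 against 2 arrays cannot give a p below 0.333. Names came from the platform annotation through RefSeq's TAIR10.1 gene table, which was used for names and gene order only; 13513 probe sets tested had a single gene, 503 several, and 8730 were not listed.

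The members, the flowering list, the markers and the comparisons were chosen with earlier results of these data known. Named genes were all members, of each class of the list those past the threshold or, where fewer than 2 passed, the smallest p up to 2, and the 5 genes closest to FLC and to AGL18; the other measured list genes, the neighbours and WNK7's description were added after their values were seen. The alternatives tried were 2 other normalizations (quantile, median), 2 other pseudocounts (1, 64), filters on the dimmest 30% or 50%, 2 other variance priors (without trend, robust), a replicate block, each array left out in turn, a q-value, and a log2 fold change of at least 0.6.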

Additional observations from a re-analysis of the deposited data

How the results depend on the processing

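FLC was called higher under all 16 settings, the reported one included, with log2 fold changes from 1.19 (pseudocount 64) to 1.67 (pseudocount 1), and from 1.43 to 1.62 when 1 array was left out. AGL18 was called lower under the 15 in which it was tested, from -1.11 (pseudocount 1) to -0.77 (pseudocount 64), and from -1.03 to -0.97 with 1 array left out. FLC and AGL18 were chosen with their fold changes known, so these calls are a description and not a test. The q-value and the rule of at least 0.6 could not remove either call. AGL18 lies just below the median brightness and was not tested without the dimmest 50% of probe sets. The flowering list therefore had 1 call there, 1 higher and 0 lower. SMZ, SNZ, AGL24 and FD, none of which passed under any setting, changed sign when 1 array was left out, over ranges of -0.110 to 0.114, -0.106 to 0.111, -0.0703 to 0.0451 and -0.224 to 0.0780. So did AGL71 (-0.0537 to 0.0511), LHCB4.1 (-0.0552 to 0.0875) and AT3G57380 (-0.0814 to 0.0506). After quantile normalization AGL71 was at 0.0437, RCA at -0.0066 and AT3G57380 at 0.0284, and after median centring AGL71 was at 0.00287; the cause was not tested.

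The count of 337 probe sets ranged from 273 to 533 with 1 array left out (the lone array of a genotype then being assumed to vary like the other genotype's), 143 to 238 higher and 130 to 295 lower, with 533 and 295 without Col replicate 2. A log2 fold change of at least 0.6 left 117 higher, and AT2G39210 then did not pass. With replicate number as a block, 1636 were called, 790 higher and 846 lower, and PYK10 passed. The labels give the 2 numbers no shared batch, and with 2 pairs a correlation of 0.279 between the replicate differences across probe sets does not establish pairing. The block changed no call of the 6 regulators.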
